A study of Rattus norvegicus with 16 samples.

Results

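Genes that carry a cell through mitosis and its spindle checkpoint were followed in primary rat aortic vascular smooth muscle cells after knockdown of Nat10. They were taken by name: 34 gene symbols, each matched to the row of the deposited expression table with that symbol and, through its Ensembl gene ID, to rows of the deposited peak lists. A row was found for 33 of the 34 names among 32883 genes, while Ccnb2 was not analysed here. The series was set up to study the part of NAT10, the enzyme that places N4-acetylcytidine (ac4C) on RNA, in the proliferation and migration of these cells.

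The knockdown cells had received an adenovirus carrying a short hairpin RNA against NAT10, and the control cells, labelled wild type, a control adenovirus. Both groups carried their virus for 48 h in full medium with 20% fetal bovine serum, which keeps primary smooth muscle cells dividing. Input RNA was sequenced in 3 knockdown and 3 control libraries, and RNA broken into fragments of 100 to 200 nt was immunoprecipitated with an antibody against ac4C in 3 knockdown and 3 control libraries. RNA bound to the NAT10 protein (RIP) came from 3 libraries of wild-type cells that had received no virus. The medium of these cells also held 20% serum. The sources used here give no strain, age or number of animals, no viral dose and no hairpin sequence. The design text calls the replicates biological repeats but names no animals, and the spread that p-values measure here may therefore be technical.

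Active Cdk1 bound to cyclin B drives entry into mitosis, and the kinases Plk1 and Aurka help build the spindle. Kinetochores, the protein plates on the centromeres, attach chromosomes to microtubules, and the spindle checkpoint holds back the anaphase promoting complex, the ubiquitin ligase that triggers chromosome separation, until every kinetochore is attached. Most of these genes are transcribed late in the cell cycle, so their summed RNA in a culture depends on how many of its cells are dividing. In bulk RNA, fewer dividing cells and less RNA per dividing cell cannot be told apart.

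The targeted gene was low in every knockdown library. Levels are in FPKM, fragments per kilobase of gene, scaled by the authors with a divisor for each library. Nat10 was at 4.38, 3.68 and 4.58 FPKM in knockdown libraries 1 to 3, against 7.69, 9.22 and 9.95 FPKM in control libraries 1 to 3. Its log2 change was -0.93 ± 0.19 (SE), and its adjusted p was 0.227 in the limma test with Benjamini-Hochberg adjustment over 13450 genes. Fragments recovered from the FPKM values numbered 6417941 to 7468528 in the knockdown libraries and 8171176 to 12065991 in the control libraries, and protein-coding genes held 94.6% to 96.5% and 97.5% to 97.6% of them. Replicates were not equally close: fragments per gene differed between control libraries 2 and 3 by 6.15 chi-square units per degree of freedom, where sampling noise gives about 1, against 35.3 to 106 for the other pairs of libraries within a group. The 10 smooth muscle markers summed to 1320, 695 and 3305 FPKM in the knockdown libraries and to 5764, 4204 and 4432 FPKM in the control libraries. The median log2 change of the 9 tested smooth muscle markers was -1.52, and none of the 9 was positive. The 8 fibroblast markers summed to 194 to 267 FPKM in knockdown libraries and 297 to 319 FPKM in control libraries. The median log2 change of the 7 tested fibroblast markers was -0.57, with 1 positive and 6 negative. Endothelial markers summed to at most 2.78 FPKM in knockdown and 4.87 FPKM in control libraries, with Cldn5 and Emcn at 0 in all 6. Leukocyte markers summed to at most 12.0 FPKM in knockdown and 5.66 FPKM in control libraries, most of it Cd68, with Cd3e at 0 in all 6.

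No mitosis gene passed the test between the groups, and their levels went by library more than by group. They were high together in knockdown library 1, low together in knockdown library 3 and in control library 1, and in between in the other libraries. Summed over the 33 genes, expression was 469, 311 and 195 FPKM in knockdown libraries 1 to 3, against 216, 314 and 329 FPKM in control libraries 1 to 3. The highest and the lowest sum were thus both in the knockdown group. As recovered fragments, the members held 12130, 8187 and 4905 in the knockdown libraries, against 8416, 8806 and 9739 in the control libraries, of which the first was the deepest. A median member rested on 235, 173 and 96 fragments in the knockdown libraries and on 151, 171 and 184 in the control libraries.

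The test covered genes with a mean of at least 1 FPKM over the 6 libraries, which 32 of the 33 members reached. None of the 32 was called at an adjusted p under 0.05, where the call rate over all genes was 0% in either direction. None had an unadjusted p under 0.05 either, against 12.5% of all genes (5.53% higher and 6.95% lower after knockdown). That count changed with the libraries: without knockdown library 3, 7 members were higher at an unadjusted p under 0.05, where 1146 of the 13450 genes were higher and 1431 lower. With library quality weights 4 members were higher, where 1610 of all genes were higher and 1910 lower, and without knockdown library 1 or control library 1 a single member was lower. The members' adjusted p-values (limma, Benjamini-Hochberg) ran between 0.456 and 0.996. The 3 knockdown and the 3 control values overlapped for each of the 32 members, whereas they were apart for 20.6% of all genes, 9.63% with knockdown higher and 10.9% with knockdown lower. On the log2(FPKM + 1) scale, where changes of low genes come out too small, the change was positive for 23 members and negative for 9, and its median was 0.12, against a median of -0.01 and 48.6% positive over all genes. That sign rested on single libraries. Without knockdown library 1 the members' median was -0.21 with 7 of 32 positive, without control library 1 it was -0.11 with 11 positive, and without knockdown library 3 it was 0.35 with 27 positive.

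**Figure D1:**
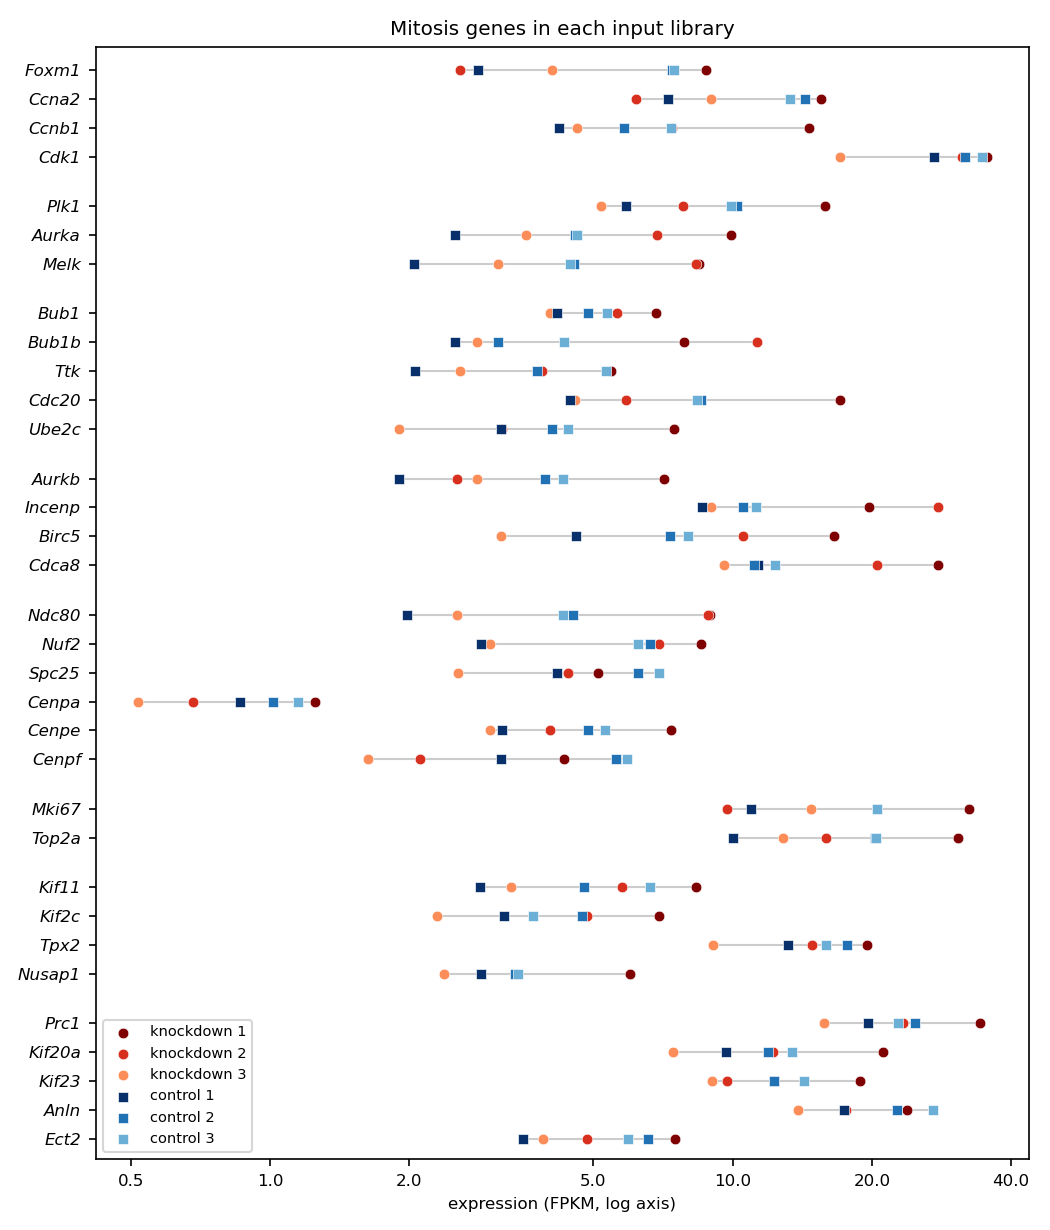
Expression of the 33 mitosis genes in FPKM (horizontal log axis) in each input library, grouped by role from top to bottom. Red circles are the 3 knockdown libraries and blue squares the 3 control libraries, with a grey line joining a gene's lowest and highest value. Knockdown library 1 holds the highest value of most genes, and knockdown library 3 and control library 1 most of the lowest.

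Counted gene by gene, 27 of the 32 tested members were highest in knockdown library 1, against 17.9% of all genes tested. Knockdown library 1 stood above every control library for 29 members (34.1% of all genes), the exceptions being Spc25, Cenpf and Anln. At the low end, 16 members were lowest in knockdown library 3 (16.8% of all genes) and 13 in control library 1 (13.6%). Knockdown library 3 was below every control library for 16 members (32.1% of all genes) and above every control library for none. For 13 members the groups were split both ways, with knockdown library 1 above and knockdown library 3 below every control library, against 5.98% of all genes. The value in knockdown library 1 was above that in knockdown library 3 for all 32 members, by a median ratio of 2.52 and by ratios between 1.70 (Bub1) and 5.26 (Birc5), where the median over all genes was 0.971. Control library 1 was below both other control libraries for 31 members, Cdca8 being the exception, against 41.3% of all genes. The median ratio of control library 2 to control library 1 was 1.57 over the members and 0.997 over all genes.

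Knockdown library 2 divided the members. It stood above every control library for 11 of them, close to the 36.3% seen over all genes: Ccnb1, Aurka, Melk, Bub1, Bub1b, Incenp, Birc5, Cdca8, Ndc80, Nuf2 and Kif2c. In these 11 genes knockdown library 1 was above every control library too, which held for 18.4% of all genes. Knockdown library 2 was below every control library for 5 tested members, namely Foxm1, Ccna2, Mki67, Cenpf and Kif23. Its median member lay 0.02 above the gene's own mean on the log2(FPKM + 1) scale. In knockdown libraries 1 and 3 the same median deviation was 0.65 and -0.50, and in control libraries 1 to 3 it was -0.47, 0.11 and 0.18.

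Other cell cycle lists followed the members across the libraries to different degrees. In 60 other mitosis genes the median deviation was 0.51, 0.29 and -0.45 in knockdown libraries 1 to 3 and -0.45, 0.07 and 0.02 in control libraries 1 to 3. In 41 DNA replication genes it was 0.51, 0.20 and -0.18 in the knockdown libraries, against -0.53, 0.06 and -0.00 in the control libraries. In 9 smooth muscle markers it was -0.89, -0.96 and -0.34 in the knockdown libraries, against 1.21, 0.40 and 0.46 in the control libraries. In 27 cell cycle brakes and G1 regulators it was 0.27, 0.24 and -0.09 in the knockdown libraries, against 0.01, -0.02 and -0.07 in the control libraries. Control library 1 was thus lowest or next to lowest by median for the mitosis and replication lists, though not for the brakes and G1 regulators, and 9 of 9 tested smooth muscle markers were highest there. The part of the smooth muscle markers, of depth or of library quality in the members' levels was not tested.

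**Figure D2:**
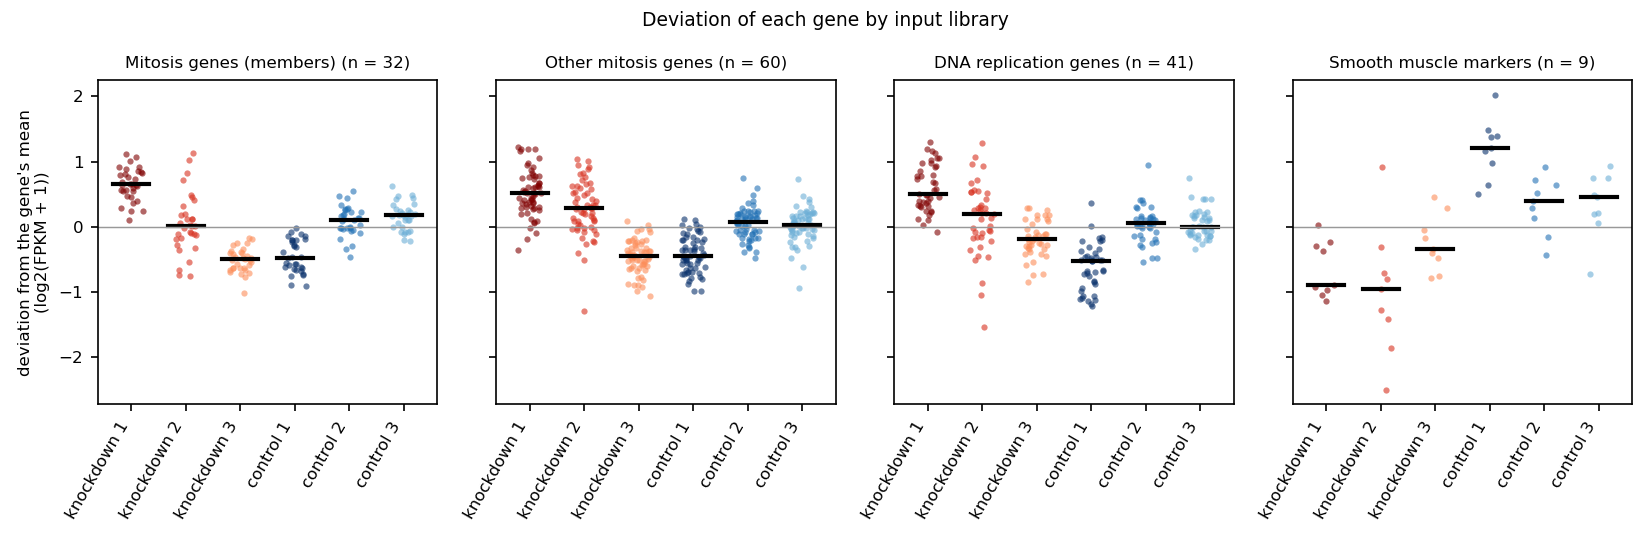
Deviation of each gene from its own mean over the 6 input libraries (vertical axis, log2(FPKM + 1) units) for the 32 tested mitosis genes, 60 other mitosis genes, 41 DNA replication genes and 9 smooth muscle markers. Each point is a gene and each black bar the median of its library. The mitosis genes have medians of 0.65 in knockdown library 1 and -0.50 in knockdown library 3, while smooth muscle markers have their highest median, 1.21, in control library 1.

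Whether promoter motifs bear on how the members moved across libraries was not tested. The members' promoters were read for the paired motifs of late cell cycle genes. In mammalian cells such promoters often carry CCAAT boxes, which the factor NF-Y binds, and a cell cycle homology region, TTTGAA, which the MuvB core complex binds. RefSeq windows from 250 bases before to 50 bases after a gene's start (build GRCr8) were at hand for 28 of the 34 names, Ccnb2 included, and for none of Tpx2, Ube2c, Ccna2, Incenp, Foxm1 and Aurkb. The 5 windows below belong to the kinase that starts mitosis, the anaphase activator, the polo kinase, a passenger complex subunit and the B-type cyclin, and show the motifs at different distances. Capitals mark CCAAT or its complement ATTGG, and TTTGAA or its complement TTCAAA.
Cdk1 (chr20:19265043-19265342, plus strand): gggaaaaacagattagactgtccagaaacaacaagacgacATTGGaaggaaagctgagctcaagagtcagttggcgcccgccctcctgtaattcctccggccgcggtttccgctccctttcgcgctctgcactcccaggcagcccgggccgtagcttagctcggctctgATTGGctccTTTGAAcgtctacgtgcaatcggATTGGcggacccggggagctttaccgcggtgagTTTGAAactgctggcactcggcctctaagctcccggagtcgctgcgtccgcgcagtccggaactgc
Cdc20 (chr5:137255750-137256049, minus strand): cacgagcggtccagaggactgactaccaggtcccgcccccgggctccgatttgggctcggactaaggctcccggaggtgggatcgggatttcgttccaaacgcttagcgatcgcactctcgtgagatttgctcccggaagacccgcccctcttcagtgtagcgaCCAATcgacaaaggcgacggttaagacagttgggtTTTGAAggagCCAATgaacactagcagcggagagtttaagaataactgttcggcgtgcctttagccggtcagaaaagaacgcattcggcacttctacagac
Plk1 (chr1:186147408-186147707, plus strand): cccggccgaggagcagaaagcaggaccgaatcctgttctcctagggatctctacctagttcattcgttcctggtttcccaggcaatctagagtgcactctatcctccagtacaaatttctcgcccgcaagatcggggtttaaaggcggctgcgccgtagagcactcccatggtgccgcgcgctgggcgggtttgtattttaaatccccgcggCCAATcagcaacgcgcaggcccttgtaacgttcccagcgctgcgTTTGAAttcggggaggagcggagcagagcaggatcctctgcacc
Birc5 (chr10:103571896-103572195, plus strand): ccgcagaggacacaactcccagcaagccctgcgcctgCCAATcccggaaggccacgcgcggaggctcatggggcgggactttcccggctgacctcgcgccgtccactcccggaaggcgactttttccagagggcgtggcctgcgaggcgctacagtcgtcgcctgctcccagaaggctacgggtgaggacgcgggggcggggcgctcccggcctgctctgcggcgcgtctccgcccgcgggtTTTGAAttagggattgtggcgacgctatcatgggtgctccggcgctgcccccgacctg
Ccnb1 (chr2:33655176-33655475, minus strand): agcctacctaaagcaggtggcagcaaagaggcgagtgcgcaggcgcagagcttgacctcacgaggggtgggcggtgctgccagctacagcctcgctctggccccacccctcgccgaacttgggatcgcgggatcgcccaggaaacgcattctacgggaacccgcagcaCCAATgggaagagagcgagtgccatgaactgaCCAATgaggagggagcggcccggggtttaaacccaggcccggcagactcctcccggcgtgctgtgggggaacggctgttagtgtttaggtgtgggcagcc

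Cdk1 held 3 CCAAT and 2 TTTGAA matches, Cdc20 2 and 1, and Plk1 and Birc5 1 of each, whereas Ccnb1 held 2 CCAAT boxes and no TTTGAA. Listed genes were counted by gene, so that a gene with several windows counted if any of them held the motif. Over the 28 genes, CCAAT was found on either strand in 20 (71.4%), TTTGAA in 20 (71.4%) and both in 16 (57.1%). Over all 33469 windows, each counted singly, the shares were 37.5%, 18.3% and 7.41%. DNA replication genes had CCAAT about as often as the members, in 64.7% of 34 genes, but TTTGAA in 8.82%. The other mitosis genes had 70.4% and 57.4% of 54 genes, and cell cycle brakes and G1 regulators 35% and 25% of 20 genes. Of the members, Bub1, Aurka, Melk and Kif2c had neither motif in their window, which says only that these letters are not there. In Cdca8 a CCAAT and a TTTGAA match shared 1 base. A match is a description of the sequence and not a binding site.

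**Figure D3:**
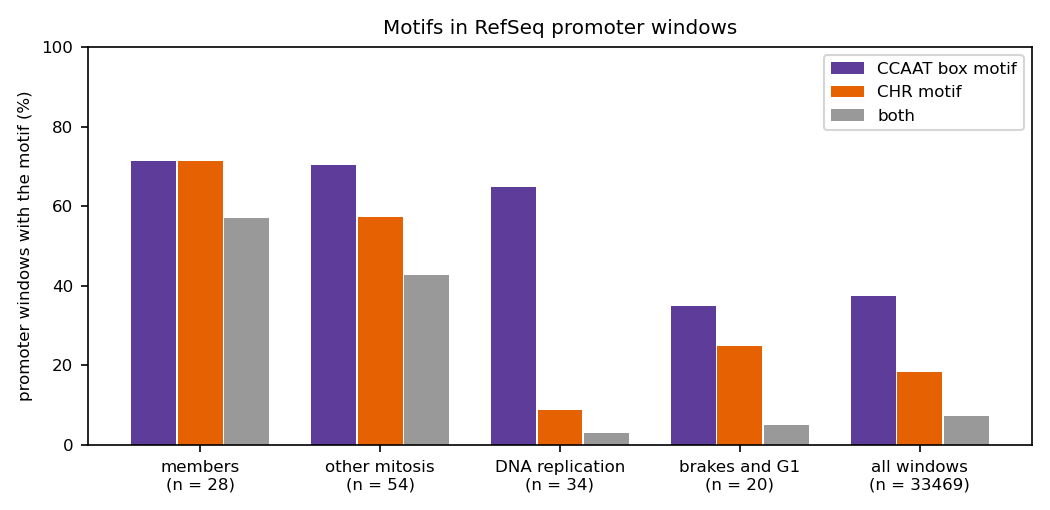
Share (vertical axis, percent) with a CCAAT box, a cell cycle homology region (CHR) or both, on either strand, in RefSeq promoter windows. Gene lists are counted by gene, and all windows singly. The number of genes stands under each list, and the number of windows under all windows. The members have 71.4% for each motif and 57.1% for both, against 37.5%, 18.3% and 7.41% of all windows.

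Among the regulators of mitotic entry, Cdk1 had the highest mean level of all members. It was at 35.4, 31.3 and 17.1 FPKM in knockdown libraries 1 to 3, against 27.2, 31.7 and 34.7 FPKM in control libraries 1 to 3. Knockdown library 3 was the one that stood apart, below all others. Its partner Ccnb1, cyclin B1, was at 14.6, 7.40 and 4.60 FPKM after knockdown, against 4.22, 5.82 and 7.36 FPKM in controls, with the first knockdown library above all others. Ccna2, cyclin A2 of S phase and early mitosis, was at 15.6, 6.17 and 8.96 FPKM after knockdown, against 7.25, 14.4 and 13.3 FPKM in controls. Foxm1, the forkhead factor that drives transcription of late cell cycle genes, was at 8.75, 2.58 and 4.07 FPKM in knockdown libraries, against 2.82, 7.41 and 7.47 FPKM in controls. In Foxm1 and Ccna2 knockdown library 2 was the lowest of the 6 although knockdown library 1 was the highest. The log2 changes of these 4 genes lay between -0.21 and 0.44.

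The kinases of entry and spindle poles were higher on average after knockdown, within the spread of the libraries. Aurka, the centrosome kinase, was at 9.91, 6.86 and 3.57 FPKM in knockdown libraries, against 2.51, 4.56 and 4.60 FPKM in controls. Its log2 change was 0.61 ± 0.37 (SE), with an adjusted p of 0.530 in limma. Melk, a kinase abundant in dividing cells, was at 8.46, 8.32 and 3.11 FPKM after knockdown, against 2.05, 4.55 and 4.46 FPKM in controls, a log2 change of 0.66 ± 0.41 (adjusted p 0.542, limma). In both genes knockdown libraries 1 and 2 lay above every control and knockdown library 3 among the controls. Plk1, the polo kinase, was at 15.8, 7.83 and 5.18 FPKM after knockdown, against 5.87, 10.2 and 9.92 FPKM in controls, a log2 change of 0.04.

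In the spindle checkpoint, Bub1b had the largest positive change of all members. Bub1b encodes BubR1, which with Mad2 and Bub3 holds Cdc20 inactive, and was at 7.87, 11.3 and 2.81 FPKM in knockdown libraries 1 to 3, against 2.51, 3.10 and 4.31 FPKM in controls. Libraries 1 and 2 were above every control and library 3 was not. Its group means were 7.33 ± 4.28 FPKM after knockdown and 3.31 ± 0.918 FPKM in controls (SD, n = 3 each), a log2 change of 0.81 ± 0.44 with an adjusted p of 0.489 (limma). Bub1, the kinase that marks centromeres, was at 6.84, 5.61 and 4.03 FPKM after knockdown, against 4.18, 4.87 and 5.34 FPKM in controls. Ttk, the kinase at the top of the checkpoint, was at 5.45, 3.87 and 2.57 FPKM after knockdown, against 2.06, 3.78 and 5.31 FPKM in controls. Neither had a log2 change beyond 0.15.

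Downstream of the checkpoint, Cdc20, the activator of the anaphase promoting complex, was at 17.1, 5.87 and 4.57 FPKM in knockdown libraries, against 4.44, 8.53 and 8.37 FPKM in controls. Its lead came from the first knockdown library alone, and without that library its log2 change was -0.35, against 0.17 with all 6. Ube2c, the ubiquitin-conjugating enzyme of that complex, was at 7.45, 3.17 and 1.90 FPKM after knockdown, against 3.15, 4.07 and 4.41 FPKM in controls, a log2 change of -0.05.

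The chromosomal passenger complex corrects wrong attachments and moves to the midzone for cytokinesis, and each of its 4 subunits had a positive log2 change, with a median of 0.45. Incenp, the scaffold, was at 19.7, 27.8 and 8.98 FPKM in knockdown libraries, against 8.60, 10.6 and 11.2 FPKM in controls (log2 change 0.71 ± 0.38, adjusted p 0.484, limma). Cdca8, borealin, was at 27.8, 20.5 and 9.56 FPKM after knockdown, against 11.3, 11.1 and 12.3 FPKM in controls (log2 change 0.57 ± 0.35, adjusted p 0.544, limma). In both genes 2 knockdown libraries lay well above a narrow band of controls and the third at or below it. Birc5, survivin, had the widest spread of any tested member, at 16.6, 10.5 and 3.16 FPKM after knockdown, against 4.58, 7.33 and 8.01 FPKM in controls. Aurkb, the kinase of the complex, was at 7.10, 2.53 and 2.80 FPKM after knockdown, against 1.89, 3.92 and 4.30 FPKM in controls. Aurkb differed from the other subunits in knockdown library 2, where it lay among the controls. With single libraries left out, the log2 change fell as low as -0.11 for Birc5 and -0.21 for Aurkb. For Incenp and Cdca8 it stayed positive.

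At the kinetochore the members did not share a sign, even within one complex. Ndc80 and Nuf2 form the microtubule-binding end of the NDC80 complex and Spc25 belongs to its inner end. Ndc80 was at 8.93, 8.83 and 2.54 FPKM in knockdown libraries, against 1.98, 4.52 and 4.29 FPKM in controls (log2 change 0.66 ± 0.46, adjusted p 0.594, limma). Nuf2 was at 8.53, 6.93 and 2.99 FPKM after knockdown, against 2.85, 6.64 and 6.25 FPKM in controls, a log2 change of 0.17. Spc25 was at 5.12, 4.40 and 2.55 FPKM after knockdown, against 4.16, 6.23 and 6.93 FPKM in controls (log2 change -0.45 ± 0.29, adjusted p 0.562, limma). The difference between these 3 changes was not tested.

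Cenpf, a large protein of the outer kinetochore, had the smallest p and the most negative change of all members. It was at 4.33, 2.104 and 1.63 FPKM in knockdown libraries, against 3.16, 5.59 and 5.91 FPKM in controls. Knockdown libraries 2 and 3 were below every control, and knockdown library 1 was between control library 1 and the other 2. Its group means were 2.69 ± 1.44 FPKM after knockdown and 4.89 ± 1.503 FPKM in controls (SD, n = 3 each), a log2 change of -0.71 ± 0.35 with an adjusted p of 0.456 (limma). Cenpe, the kinesin that carries chromosomes to the spindle equator, was at 7.35, 4.03 and 2.99 FPKM after knockdown, against 3.17, 4.87 and 5.29 FPKM in controls. Cenpa, the histone H3 variant of centromeres, was the member under the filter, with a mean of 0.912 FPKM. It was at 1.25, 0.680 and 0.518 FPKM after knockdown, against 0.862, 1.02 and 1.15 FPKM in controls, and rested on 9 to 25 fragments in a library.

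On the chromosomes, Mki67, the coat protein used as a proliferation marker, was at 32.5, 9.71 and 14.8 FPKM in knockdown libraries, against 10.97, 20.6 and 20.5 FPKM in controls. Its knockdown values ran from below every control to above every control, and its log2 change was 0.01. Top2a, the topoisomerase that untangles sister DNA, was at 30.8, 15.9 and 12.9 FPKM after knockdown, against 10.03, 20.3 and 20.4 FPKM in controls.

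The spindle members had log2 changes between -0.15 and 0.23, and the midzone members between -0.28 and 0.10. Of the spindle proteins, Tpx2, which activates Aurka on microtubules, was at 19.5, 14.9 and 9.09 FPKM in knockdown libraries, against 13.2, 17.7 and 15.9 FPKM in controls. Kif11, the motor that pushes spindle poles apart, was at 8.35, 5.77 and 3.31 FPKM after knockdown, against 2.85, 4.76 and 6.63 FPKM in controls. Kif2c, a microtubule depolymerase, and Nusap1, a microtubule bundler, had log2 changes of 0.15 and 0.16. Of the midzone proteins, Prc1, the bundler of antiparallel microtubules, was at 34.2, 23.3 and 15.7 FPKM after knockdown, against 19.6, 24.7 and 22.8 FPKM in controls. Kif23, a motor of centralspindlin, was at 18.9, 9.71 and 9.04 FPKM after knockdown, against 12.3, 12.3 and 14.3 FPKM in controls. Ect2, the exchange factor that activates RhoA for cytokinesis, was at 7.51, 4.83 and 3.90 FPKM after knockdown, against 3.51, 6.56 and 5.95 FPKM in controls. Anln, anillin of the contractile ring, had the third negative change by size, -0.28, and Kif20a, which brings the passenger complex to the midzone, a change of 0.10. These 9 genes lay in knockdown library 3 at or near the low end of their range, with 7 of them lowest there.

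**Figure D4:**
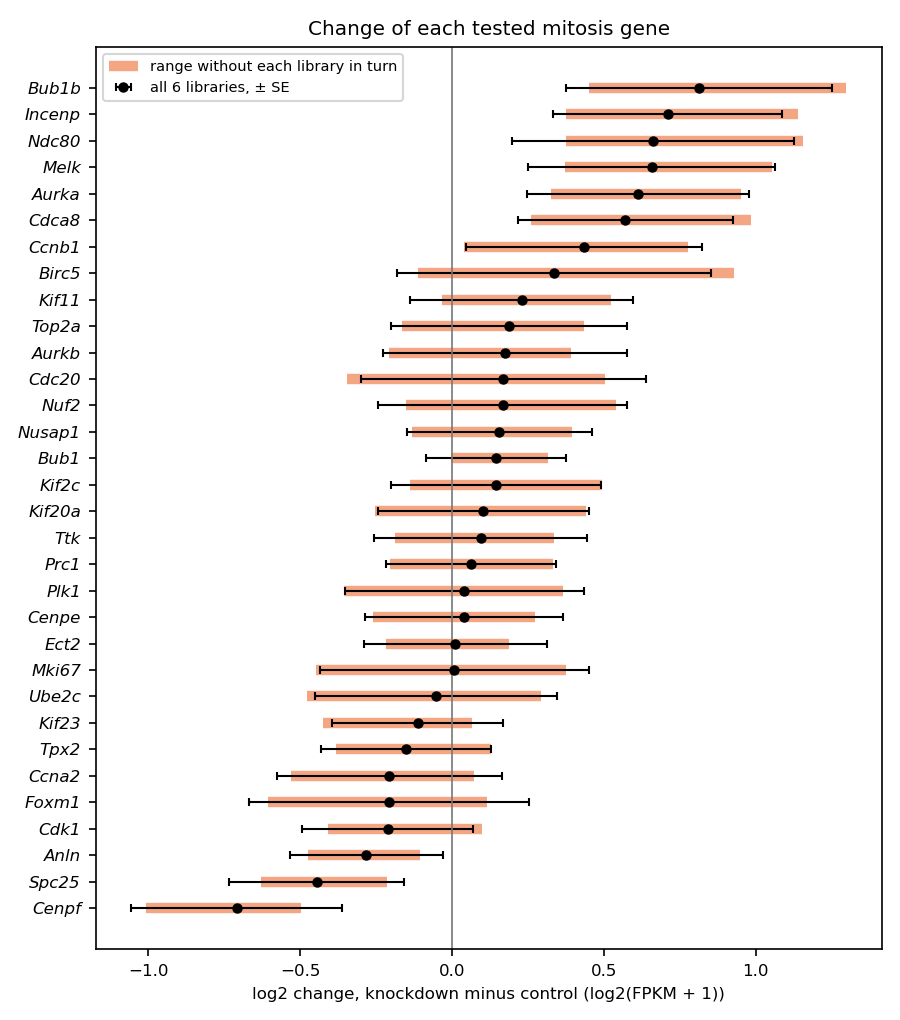
Log2 change of each of the 32 tested mitosis genes, knockdown minus control (horizontal axis, log2(FPKM + 1) units). Black points and bars give the value from all 6 libraries ± SE, and orange bars the range when each library is left out in turn. Bub1b (0.81) and Cenpf (-0.71) mark the ends, and most orange bars cross 0.

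Sign held under every alternative for 10 of the 32 members. Over 17 fits, which include leaving out each library, 7 members stayed positive (Bub1b, Incenp, Ndc80, Melk, Aurka, Cdca8 and Ccnb1) and 3 stayed negative (Cenpf, Spc25 and Anln). The other 22 changed sign in at least 1 fit. No member was called in any of the 17 fits, and the lowest adjusted p among the 8 members of smallest p was 0.101, for Incenp and Cdca8 (limma).

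The rest of the pathway was read from 60 other mitosis genes, none of them called. Their log2 change was positive for 46 and negative for 14, and its median was 0.23. An unadjusted p under 0.05 was reached by 2 genes that were higher after knockdown and by 1 that was lower, which is 5% of the 60, against 12.5% of all genes. The genes of smallest p are given as a description. Mad2l1, the checkpoint protein Mad2, was at 15.4, 15.8 and 8.25 FPKM after knockdown, against 6.23, 7.64 and 8.22 FPKM in controls, a log2 change of 0.72 with an adjusted p of 0.371 (limma). Gtse1, a microtubule protein that restrains p53, was at 41.5, 36.7 and 11.6 FPKM after knockdown, against 11.7, 12.5 and 11.3 FPKM in controls. Stmn1, stathmin, a tubulin-binding protein, was at 11.6, 3.44 and 6.95 FPKM after knockdown, against 10.2, 17.1 and 17.1 FPKM in controls. Fzr1, the second activator of the anaphase promoting complex, was at 22.2, 18.4 and 17.1 FPKM after knockdown, against 12.8, 16.2 and 14.9 FPKM in controls. Of the 60 genes, the groups were apart for 2 with knockdown higher, Mad2l1 and Fzr1, and for 1 with knockdown lower, Ckap5. Over all genes tested they were apart for 9.63% with knockdown higher and 10.9% with knockdown lower. For Gtse1 and Stmn1 the groups overlapped. The median of this list was 0.04 without knockdown library 1, 0.05 without control library 1 and 0.14 without knockdown library 2, but 0.49 without knockdown library 3, where 53 of the 60 were positive and 21 were higher at an unadjusted p under 0.05.

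DNA replication genes leaned the same way with more of them positive, 37 of 41 with a median of 0.34, and none was called. The median was 0.16 without control library 1, with 28 positive, and 0.24 without knockdown library 1, with 27 positive. Of the 41 genes, 3 had an unadjusted p under 0.05, all higher after knockdown, which is 7.32%, against 12.5% of all genes. The groups were apart for 5 with knockdown higher and 0 with knockdown lower, against 9.63% and 10.9% of all genes. Cdt1, which loads the replicative helicase, was at 17.0, 13.5 and 7.64 FPKM in knockdown libraries, against 3.18, 6.63 and 6.90 FPKM in controls (log2 change 1.05, adjusted p 0.348, limma). The next by p were Chaf1b, a histone chaperone subunit, Rfc4, a clamp loader subunit, and Mcm4, a helicase subunit, with log2 changes of 0.68, 0.84 and 0.78. In a list of 27 cell cycle brakes and G1 regulators, 15 were positive and 12 negative, with a median of 0.18 that was 0.03 without knockdown library 1, 0.06 without control library 2 and 0.07 without control library 3, but 0.30 without knockdown library 3. Its gene of smallest p was Ccng1, cyclin G1, at 38.9, 33.99 and 30.9 FPKM after knockdown, against 73.3, 62.3 and 64.0 FPKM in controls (log2 change -0.93, adjusted p 0.193, limma). Cdkn1a, the Cdk inhibitor p21, was at 293, 408 and 138 FPKM after knockdown, against 168, 111 and 107 FPKM in controls (log2 change 1.01, adjusted p 0.387, limma). Cdkn2b, the inhibitor p15, and Lin52, a subunit of the MuvB core, had log2 changes of 0.58 and 0.81. Of the 27 genes, the groups were apart for 2 with knockdown higher, Cdkn2b and Lin52, and for 2 with knockdown lower, Ccng1 and Ccnd2. Over all genes tested they were apart for 9.63% with knockdown higher and 10.9% with knockdown lower.

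The ac4C lists give, for each library, the peaks that the authors called, with no enrichment and 1 score each, read as a p-value from its range; the sources used here do not say whether it is raw or adjusted. In control lists 1 and 2 most rows carry the same p-value, 0.045 in list 1 and 0.046 in list 2, and 36 of the 49 member rows there are of that kind, so each count is given with and without the rows at a list's most common p. In the other lists few rows were at that value, 160, 101 and 105 in knockdown lists 1 to 3 and 139 in control list 3. The value there was 0.0076, 0.003, 0 and 0.005 in the same order, so rows of small p were left out too. Counting every row, 13 members had a peak in at least 1 knockdown list and 21 in at least 1 control list, against 33% and 59% of all genes tested. Leaving out the most common p, 13 members had one in a knockdown list (32.2% of all genes) and 11 in a control list (33.5%). The excess in controls was thus in rows at the shared p-value. Of the members so left, 9 were in both groups, Bub1b, Melk, Ect2 and Foxm1 in knockdown lists alone, and Prc1 and Ube2c in control lists alone. Together these 15 members stand against 46.8% of all genes tested. A further 8 had rows at the most common p alone and 10 had no row.

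List by list the members' share lay above that of all genes in 5 of the 6 lists when every row was counted, and below it in knockdown list 3. Without the most common p it lay above in 4 lists, and below in knockdown list 3 and, by little, in control list 2. Knockdown list 1 held 9 members, 8 of them outside its most common p, where all genes gave 18.6% and 18%. Knockdown list 2 held 10, all outside the most common p (15.4% and 15% of all genes), and knockdown list 3 held 2, both outside it (16% and 15.5%). Control list 1 held 18 members and 7 outside the most common p (41.2% and 18.7% of all genes), control list 2 held 15 and 4 (40.2% and 12.2%), and control list 3 held 9 and 9 (20.4% and 19.8%). Input knockdown library 3, which has the same number as the shortest member list, was also where the members' RNA was lowest. Other libraries went differently. Control library 1 had the lowest member sum of the controls, 216 FPKM, but control list 2 held the fewest members outside the most common p. Knockdown library 1 had the highest sum, 469 FPKM, but knockdown list 2 held more members than knockdown list 1. Whether the number of peaks follows the level of the RNA was not tested.

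Cdk1 carried the steadiest peak. The same 148 nt, chr20:20591402-20591549 on the plus strand in the coordinates of the deposited lists, were called in knockdown lists 1 and 2 (p 3.2e-28 and 2.6e-10) and in control lists 1 to 3 (p 3.2e-16, 4e-17 and 2.5e-87). Knockdown list 3 did not hold it. The submitters' processing notes name rn6 as their one rat build, and no sequence of that build was used here, so peak sequences and the part of the transcript they cover are not given. Top2a had the next most repeated peak, 150 nt at chr10:86901007-86901156 on the minus strand, in knockdown list 2 (p 1.1e-09) and in control lists 1 to 3 (p 0.00039, 1.3e-36 and 1.3e-21). In knockdown list 1 Top2a had a different peak, of p 0.0045.

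Cenpf was the member with a peak outside the most common p in all 6 lists, yet the positions moved. Its smallest p was 1.6e-14 in the knockdown lists and 1e-41 in the control lists, and of all its peaks outside the most common p only those of knockdown list 3 and control list 1 shared bases. By the gene length recovered with the fragments, Cenpf (10069 nt) and Mki67 (9880 nt) are the longest members. The part of length was not tested, and the share of all genes with a peak in all 6 lists was not counted. Mki67 had peaks in all 3 knockdown lists, with a smallest p of 1.3e-18 in list 3, and in control list 1 (smallest p 0.0089), with no bases shared between the groups. Incenp had peaks in knockdown list 2 (p 3.7e-05) and in control lists 1 to 3 (smallest p 1.3e-07). The knockdown peak of Incenp shared bases with those of control lists 1 and 3.

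Among the remaining members, Tpx2 had a peak over chr3:148369858-148370038 on the plus strand in control lists 1 and 3 (p 0.0013 and 0.0046), and a shorter one within it in knockdown list 1 (p 0.00049). Spc25 had overlapping peaks in knockdown lists 1 and 2 (p 2.9e-06 and 0.0017) and in control list 1 (p 5.6e-06). Kif23 had a peak in knockdown list 1 (p 0.0087) that touched one of control list 3 (p 9.1e-05). Cenpe had 1 peak in each group, at different places, with p 0.012 after knockdown and 0.014 in controls. Outside the most common p, 4 members had a peak in knockdown list 2 alone, where Bub1b had p 5.8e-06, Foxm1 0.001, Melk 0.0047 and Ect2 0.025. By the same count Prc1, with p 4e-05 and 0.0025, and Ube2c, with p 0.014, had peaks in control list 3 alone. At the most common p, Ect2 also had a row in knockdown list 1 (p 0.0076), and Bub1b and Melk had rows in control lists 1 and 2. Counting every row, Ube2c was the member in all 3 control lists and in no knockdown list, and 2 of its 3 rows sat at the shared p-value. No level of acetylation can be read from these lists, since they hold no enrichment.

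**Figure D5:**
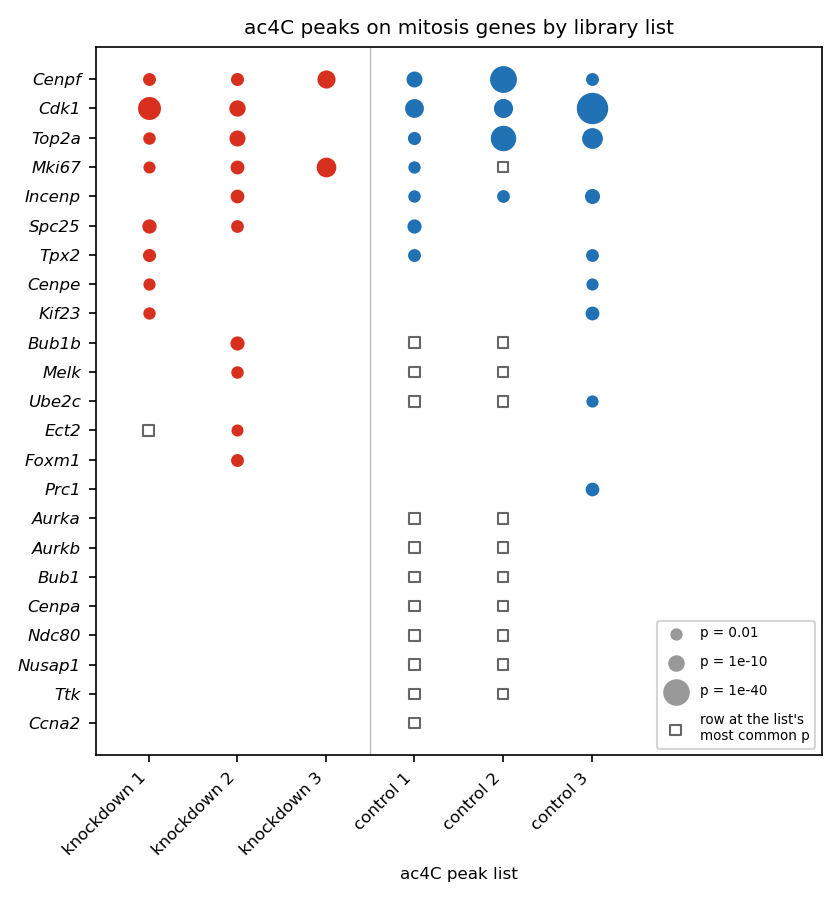
Deposited ac4C peaks on 23 mitosis genes (rows) in each knockdown and control peak list (columns). Filled circles are peaks outside the list's most common p, larger for a smaller p, and open squares are genes with rows at the most common p alone. Cenpf has a circle in all 6 lists, and 15 members have one in at least 1 list.

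The NAT10 RIP lists held 1 of the 33 members (3.03%), Top2a, in list 2 alone. Of all genes tested, 5.93% had a peak in at least 1 list and 2.68% in all 3, so a count of 1 is near what all genes gave and is no result about these transcripts. No member was in list 1 or list 3, where 4.31% and 4.03% of all genes were, and 1 of 33 was in list 2, where 4.16% were. The Top2a peak lay at chr10:86911935-86912101 on the minus strand, with 50 nt in 2 blocks and the authors' log2 enrichment of 2.44, exceeded by 9 of the 1993 peaks in that list. It shared no base with any ac4C peak of Top2a. The lists hold called peaks alone, and the sources used here do not name the control behind the enrichment, so a gene without a peak is not shown to be unbound.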

How the data were processed

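Expression was deposited by the authors as FPKM, per the labels, which are fragments per kilobase scaled with a divisor for each library. Tools listed in the submitters' processing notes are HISAT2 2.1.0, cutadapt 2.5, HOMER 4.10.4, DESeq2 and featureCounts 1.6.3, and the builds are GRCh38, GRCm38 and rn6, with no step given for any of them. The authors deposited 1 ac4C peak list per library whose score lies in the range of a p-value, and 1 NAT10 RIP list per library with a log2 enrichment, a p-value, its −log10 and a score, per the file headers. The sources used here name no peak caller for either assay. Peak starts had 1 added so that positions count from 1.

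The FPKM values still held whole fragments: a search over gene lengths gave them in every library for all 21401 genes above 0, within a relative 2e-08 or an absolute 1e-05, and in 0 of 200 altered genes. These fragments give the depth, the spread between replicates and the protein-coding shares. They entered alternative fits, voom and scaling to their totals, but not the main test. The divisors behind the FPKM differed from the recovered totals. They were 7319521, 8165892 and 6897608 in knockdown libraries 1 to 3, against totals of 6417941, 7106004 and 7468528. In control libraries 1 to 3 they were 11504349, 7814625 and 8291271, against totals of 12065991, 8171176 and 8623541.

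The main test was limma 3.58.1 (R 4.3.3), two-sided, with group as its one term and a trended prior variance. It ran on log2(FPKM + 1) of the 13450 genes, of 32883, whose mean FPKM reached 1, and p-values were adjusted by Benjamini-Hochberg at 0.05. The code of the fit was tried on simulated data whose spread was set and not taken from these libraries. That run therefore says nothing about the power of the test here. Lists are described by counts and medians beside those of all genes, without a test of the list. Motifs were searched with Python 3.11.15 in RefSeq promoter windows of GRCr8, on both strands.

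The members, the other lists and the tests were chosen with earlier results of these data known. Genes were named by rule. These were the 8 members of smallest p and members with an ac4C peak outside its list's most common p. Members with a RIP peak in at least 2 lists (none), those under the filter and Nat10 were named too. So were the 4 genes of smallest p of each other list. Not every value is printed for each of these genes. Alternatives covered the pseudocount (0.1), the filter, scaling, library weights, voom on the recovered fragments, a replicate block, leaving out libraries, and stricter peak rules. The non-immunoprecipitated library of the RIP assay was not used.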

Additional observations from a re-analysis of the deposited data

How the results depend on the processing

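No mitosis gene was called in the 6-library fit or under any of 16 alternatives. The number of all genes called was 0 in the 6-library fit, 335 with library quality weights, and 0 to 1 when each library was left out in turn. Nat10 had a log2 change of -0.97 and an adjusted p of 0.0399 with quality weights (limma), within a range of 0.0399 to 0.797 over its alternatives. The median log2 change of the members was -0.21 to 0.35 with each library left out in turn, and -0.02 when control library 1 and knockdown library 2 were both left out. That of cell cycle brakes and G1 regulators was 0.0297 to 0.2981 with each library left out. Scaling to the recovered fragment totals, added after seeing the data, moved the median of all genes by over 0.1, to 0.12, and that of the members to 0.27. At an unadjusted p under 0.05, all genes then split into 1124 higher and 569 lower after knockdown, against 744 and 935 in the 6-library fit. Members with an ac4C peak in controls numbered 11 without rows at the most common p and 9 at a p under 0.01, against 21 with every row. Members with a RIP peak numbered 0 to 1 when each list was left out. Matching ac4C rows by gene name was not run, because those lists give gene IDs alone.

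Same-numbered libraries did not deviate together (correlations -0.21, -0.28 and 0.18), so the numbers were not taken to pair them. With the replicate block the members' median stayed at 0.12, no gene was called, and an unadjusted p under 0.05 was reached by 500 genes higher and 676 lower after knockdown. Depth limits the low members most: Cenpa rested on 9 fragments in knockdown library 3.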
